A study of Mus musculus with 300 samples.

Results

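The transcript ENSMUST00000078869_at was followed through an intercross of 2 inbred mouse strains, as 1 of 34406 transcripts measured in the liver. It was chosen from its own levels, which were high in SM and F1 mice and low in MRL mice, so those levels and the strain difference are given as a description and carry no test. Its low F2 tail and its difference between the sexes were also known from earlier results of these data, so the tests on them below describe these animals and are not independent of the choice. The identifier could not be paired with a gene, and no gene name, position, sequence or function is given for it or for any other transcript. For the same reason the liver label was not checked against marker genes.

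Total RNA from the liver of each of 300 mice was hybridised to an Affymetrix Mouse Gene 1.0 ST array, which reads transcripts with probes along the exons. The groups were 282 F2 mice of both sexes, bred by intercrossing F1 mice, 3 male and 3 female F1 mice with MRL/MpJ mothers and SM/J fathers, 3 male and 3 female MRL/MpJ (MRL) mice, and 3 male and 3 female SM/J (SM) mice. All were 13 weeks old, untreated, fed chow, housed alone before the dissection and fasted on the day. Each animal gave 1 array. The 14 batches held 2 to 25 arrays each, and no genotypes were used here.

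An inbred strain carries the same allele on both copies of a chromosome, its F1 offspring carry 1 allele from each strain, and the F2 generation brings all combinations back together. Take a trait set by 1 locus with a fully dominant allele, outside the sex chromosomes. Its F1 animals stand at the level of the dominant parent, and 25% of F2 animals stand at the level of the other parent. An array value follows the amount of RNA but also how well the RNA matches the probes, so a base that differs between strains under a probe moves the value too. Probe sequences were not used here. In whole liver, fewer cells of a type and less RNA per cell cannot be told apart.

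Some libraries stood apart from their labels. A score over 51 transcripts that separate the sexes in the parental strains, set to -1 for the mean of parental females and 1 for that of parental males, ran from 0.51 to 1.13 in 146 F2 males and from -1.38 to -0.69 in 131 F2 females. The library labelled F1 male 1146 scored -0.97, within the female range. The library labelled F2 male 2308 scored -0.04, and those labelled F2 female 2293, 2116, 2295 and 2122 scored -0.59, -0.05, -0.09 and -0.40. An F2 library was taken as between the sexes if labelled male and under 0.5, or labelled female and over -0.6. These limits differ in size. All 6 lay at a high level of ENSMUST00000078869_at, between 11.88 and 12.38. Each stayed in the group of its label. Without the 5 F2 libraries the high band given below held 115 males from 11.91 up and 108 females from 12.03 up, and the low band was the same.

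On the log2 scale of the deposited values, which ran from 4.66 to 13.60 over the whole table, ENSMUST00000078869_at stood at 12 or above in F1 and SM livers, and the MRL mean of each sex was over 2 units lower. F1 males had 12.24, 12.19 and 12.04, the first of these in the library labelled F1 male 1146. MRL males had 9.80, 9.96 and 10.14, and SM males 12.33, 12.52 and 12.58. Every F1 male thus lay above every MRL male and below every SM male. F1 females had 12.62, 12.30 and 12.24. MRL females had 8.17, 7.74 and 8.73, and SM females 12.49, 12.52 and 12.57. F1 females also lay above all MRL females, but their range took in that of the SM females.

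The MRL minus SM difference was -2.51 log2 units in males, a 5.69-fold higher level in SM, and -4.31 in females, a 19.9-fold higher level. The F1 mean lay at 87.2% of the way from MRL to SM in males and at 96.8% in females on the log2 scale. On this scale an F1 level midway between the parents in unlogged amount also lies close to the higher parent, so the position was taken on unlogged values as well. It was 75.7% in males and 91.0% in females, and the lowest F1 animal lay 0.33 log2 units above the unlogged midpoint in males and 0.64 above it in females. Without the library labelled F1 male 1146 the male position was 85.5% on the log2 scale and 72.9% unlogged. These figures describe the levels that chose the transcript and rest on 3 animals per group.

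**Figure D1:**
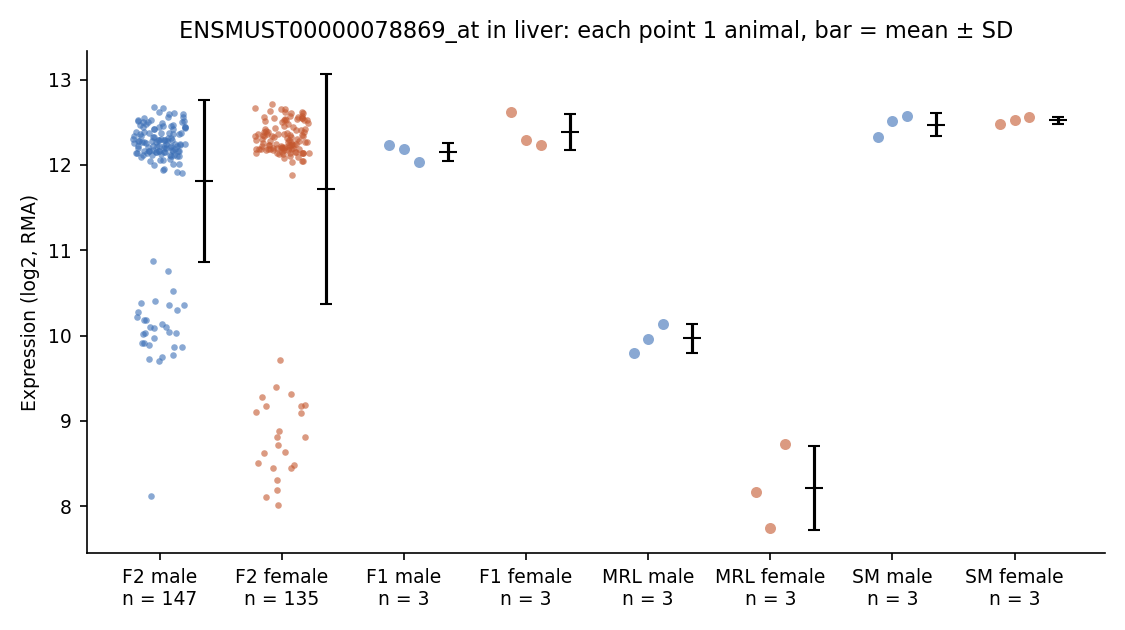
Level of ENSMUST00000078869_at in each animal (log2, vertical axis) by group, with the mean and SD beside each column of points. F2 animals fall into a high band next to F1 and SM animals and a low band next to MRL animals, and the low band is lower in females than in males.

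The low level of MRL mice differed between the sexes, in the same 6 animals whose low level chose the transcript. It averaged 9.97 ± 0.17 in MRL males and 8.21 ± 0.50 in MRL females (SD, n = 3 each), with no overlap. The male minus female difference was 1.75 ± 0.17 log2 units (SE; 3.37-fold; limma adjusted p = 2.51e-05), in a comparison that called 17.1% of all transcripts, and the adjusted p was 3.02e-06 without the library labelled F1 male 1146, which enters only the shared spread. In F1 the difference was -0.23 ± 0.17 (SE; adjusted p = 0.393, with 1.58% of transcripts called), and -0.27 without the library labelled F1 male 1146 (adjusted p = 0.344, with 6.91% called). The number of transcripts called in F1 rested on single animals: it was 544 with all, 2376 without the library labelled F1 male 1146, 11 without F1 male 1152, 17 without F1 male 1151, and 40, 44 and 167 without F1 females 1149, 1145 and 1150. In SM it was -0.05 ± 0.17 (SE; adjusted p = 0.945, with 2.31% called), at 12.47 ± 0.13 in males and 12.52 ± 0.04 in females (SD, n = 3 each).

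Whether the strain difference depended on sex was fitted as an interaction. The fit used the MRL and SM values that chose the transcript, so its p-values describe these animals and are not independent of that choice. The MRL minus SM difference was 1.80 ± 0.24 log2 units (SE) less negative in males than in females (limma interaction, adjusted p = 0.00255). This test called 76 transcripts, or 0.221% of the array. Leaving out 1 of the 18 animals moved that count between 28 (without MRL male 8) and 701 (without F1 male 1152), with 201 without the library labelled F1 male 1146 and 225 without SM female 1, and ENSMUST00000078869_at was called each time. MRL males were run in batches 1, 2 and 2 and MRL females in batches 4, 7 and 11, so no batch held both and a sex difference within a batch could not be taken. With batch effects estimated in F2 subtracted, the interaction was 2.00 ± 0.38 (SE; adjusted p = 0.0444) and the MRL sex difference 2.06 log2 units. These F2 batch effects also carry the share of low F2 animals, described below, which was 30.0% in batch 2 and 4.35% in batch 4. Subtracting them therefore does not separate batch from sex in MRL mice. Over all alternatives the interaction ran from 1.57 to 2.06, with adjusted p between 6.35e-05 and 0.0444.

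The F2 animals fell into 2 bands in each sex, the lower of which was known when the transcript was chosen. Each was set against a dividing level midway between the MRL mean and the mean of the SM and F1 animals of its sex, 11.14 in males and 10.33 in females. In F2 males the 31 low animals lay between 8.12 and 10.87, with a median of 10.09, and the 116 high animals between 11.91 and 12.67, with a median of 12.27. In F2 females the 23 low animals lay between 8.02 and 9.72, with a median of 8.81, and the 112 high animals between 11.88 and 12.72, with a median of 12.29. No animal stood in the 1.04 log2 units between the bands in males, or in the 2.16 units between them in females. The 10.87 of the highest low male and the 11.91 of the lowest high male were the nearest values on either side of the dividing level, as were 9.72 and 11.88 in females.

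**Figure D2:**
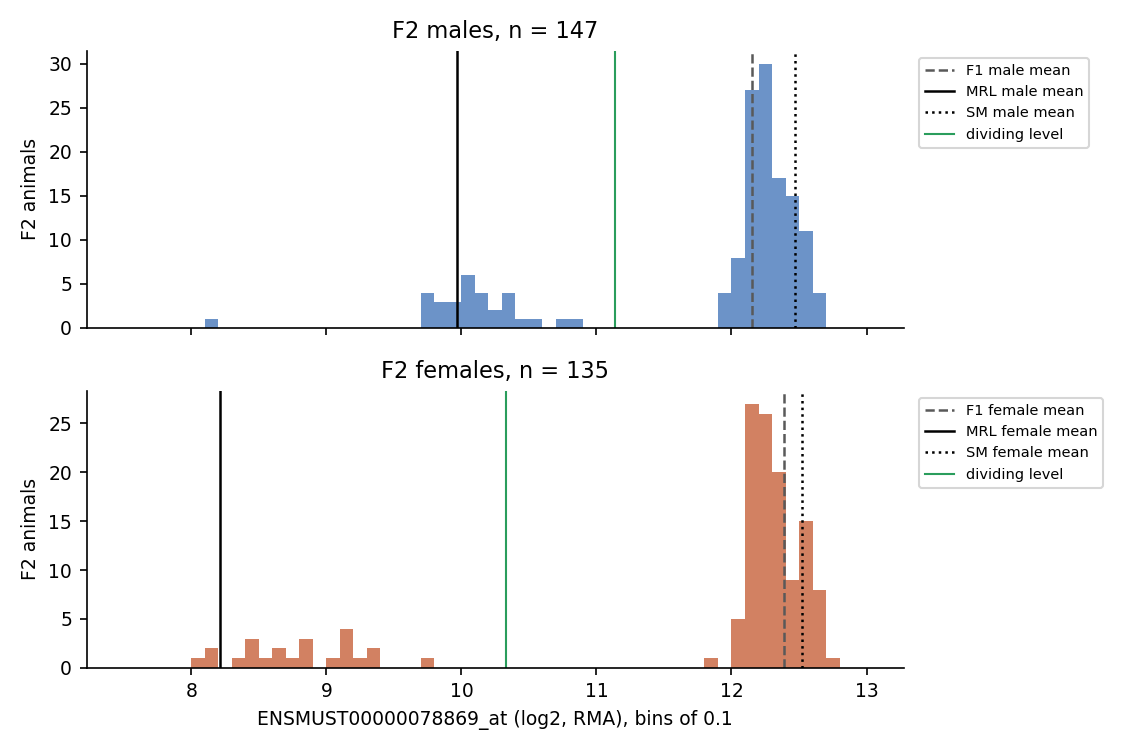
Number of F2 animals (vertical axis) at each level of ENSMUST00000078869_at (log2, bins of 0.1) in males above and females below, with the F1, MRL and SM means of the sex and the dividing level as lines. The bands are separated by 1.04 log2 units in males and 2.16 in females, and the dividing level falls in the empty stretch.

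The low bands of the sexes stood apart as the MRL animals of the sexes did. Of the 31 low males, 2 lay under the highest low female, at 8.12 and 9.70. The male at 8.12, F2 male 2315, was 1 of 5 low males under the range of the MRL males, while 14 lay within that range and 12 above it. Its sex score of 0.66 was within the range of F2 males, and its array SD over all transcripts was 1.26, against an F2 median of 1.28. Of the low females, 0 lay under the range of the MRL females, 11 within it and 12 above it.

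The high bands of the sexes overlapped over nearly their whole range. They had an SD of 0.17 log2 units in either sex and medians of 12.27 in males and 12.29 in females. Within the range of the 3 SM animals of their sex lay 37 high males and 12 high females, 6 males and 13 females lay above it, and 73 males and 87 females lay below it. Over all F2 animals, both bands together, the level averaged 11.81 ± 0.95 in the 31 low and 116 high males and 11.72 ± 1.35 in the 23 low and 112 high females (SD). The male minus female difference was 0.14 ± 0.14 (SE, batch in the fit; limma adjusted p = 0.43), in a comparison that called 45% of all transcripts, and 0.16 without the 5 libraries between the sexes (adjusted p = 0.384). Males were higher in 7 of the 13 batches that held both sexes.

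The share of low animals was set against the 25% that 1 locus outside the sex chromosomes gives with a fully dominant SM allele. In males 31 were low and 116 high, a low share of 21.1% (95% exact Clopper-Pearson interval 14.8% to 28.6%), where 25% would be 36.75 animals. An exact two-sided binomial test gave p = 0.296 (0.394 after Benjamini-Hochberg adjustment over 4 tests of shares). In females 23 were low and 112 high, a low share of 17.0% (11.1% to 24.5%), where 25% would be 33.75 animals (exact p = 0.0363, adjusted p = 0.0726). In all F2 animals the share was 54 of 282, or 19.1% (14.7% to 24.2%; exact p = 0.0231, adjusted p = 0.0726).

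Each share thus lay below 25%, and none differed from it past an adjusted p of 0.05. The male share was 4.05 percentage points above the female share (odds ratio 1.30), a difference that did not pass the test (Fisher's exact test, p = 0.450). Without the 5 F2 libraries that lay between the sexes, all of them high, the shares were 21.2% in males, 17.6% in females and 19.5% over all (adjusted p = 0.109 for the last). With 1 dividing level for both sexes 29 males were low and the share over all F2 was 18.4%, with an adjusted p of 0.0432. By batch the share ran from 4.35% (1 of 23 animals) to 36.4% (4 of 11) among the 13 batches of at least 11 F2 animals, and it was under 25% in 9 of them, over it in 3 and at it in 1. The remaining batch held 2 F2 animals, both high.

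Other transcripts were then asked whether they followed ENSMUST00000078869_at from animal to animal in F2. The slope of each on its level was fitted with sex and batch in the model, in log2 units per log2 unit, so that no animals were grouped by the outcome. Of 34405 transcripts 193 passed (limma adjusted p under 0.05), or 0.561%, of which 47 had a positive slope (0.137%) and 146 a negative one (0.424%). The positive ones made up 24.4% of the calls, and this share moved with the scaling, to 34.4% of 128 calls with each array centred on its median and 42.8% of 269 calls after quantile normalization. The median size of the slopes was 0.031 among the 193, against 0.0040 over all transcripts. Of the 193, 3 had a slope over 0.1 in size, all of them negative. Each slope is that of 1 straight line through both F2 bands, so its size does not give the steepness within a band. The 2 transcripts in each direction with the strongest evidence are described by their values.

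ENSMUST00000074693_at ran against ENSMUST00000078869_at, with a slope of -0.249 ± 0.018 (SE; limma adjusted p = 1.09e-28). F1 males had 9.47 (in the library labelled F1 male 1146), 9.37 and 9.22, MRL males 9.78, 9.76 and 9.92, and SM males 8.73, 8.83 and 8.71. F1 females had 8.72, 9.07 and 9.36, MRL females 9.65, 9.63 and 9.78, and SM females 8.47, 8.22 and 8.05. In each sex all MRL animals were above all SM animals and the F1 animals lay between them without overlap. The MRL minus SM difference was 1.25 ± 0.09 log2 units (SE; limma adjusted p = 3.28e-08, in a comparison that called 10.3% of transcripts), and the F1 level stood between the parents where that of ENSMUST00000078869_at stood near SM. The slope was -0.301 ± 0.028 in F2 males and -0.216 ± 0.024 in F2 females, and it was negative within each of the 13 batches fitted.

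ENSMUST00000021506_at also ran against it, with a slope of -0.101 ± 0.008 (SE; limma adjusted p = 1.09e-22), negative in 13 of 13 batches. F1 males had 11.75 (in the library labelled F1 male 1146), 11.61 and 11.49, while MRL males averaged 11.94 ± 0.04 and SM males 11.32 ± 0.16 (SD, n = 3 each). In females it averaged 11.79 ± 0.07 in F1, 11.86 ± 0.04 in MRL and 11.61 ± 0.11 in SM. MRL animals lay above SM animals without overlap in both sexes, and over both the MRL minus SM difference was 0.44 ± 0.06 (SE; limma adjusted p = 5.00e-05). The slope was -0.154 in F2 males and -0.075 in F2 females, and their difference did not pass (adjusted p = 0.0508), but did without the 5 libraries between the sexes (-0.081, adjusted p = 0.0364). On the level scaled within sex, described below for ENSMUST00000021390_at, the slopes of ENSMUST00000021506_at were -0.36 in males and -0.32 in females, and their difference did not pass (adjusted p = 0.916).

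ENSMUST00000074051_at went up with ENSMUST00000078869_at, with a slope of 0.086 ± 0.007 (SE; limma adjusted p = 1.45e-22), positive in 12 of 13 batches. Its strain difference, like that of ENSMUST00000078869_at, was greater in size in females. The outcome of the interaction fit for this transcript is not given here. MRL females averaged 12.67 ± 0.11 and SM females 13.21 ± 0.03, without overlap, while MRL males averaged 13.13 ± 0.09 and SM males 13.21 ± 0.14 (SD, n = 3 each), with overlap. Over both sexes the MRL minus SM difference was -0.32 ± 0.06 (SE; limma adjusted p = 0.0012).

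ENSMUST00000021390_at followed with a positive slope that differed between the sexes. The slope was 0.172 ± 0.017 in F2 males (SE; limma adjusted p = 2.02e-14) and 0.019 ± 0.008 in F2 females (adjusted p = 0.377). The male minus female slope was 0.154 ± 0.018 (SE; limma adjusted p = 1.56e-11), and this was the 1 transcript called for a difference of slopes among 34405 (0.00291%), with 1745 transcripts at an unadjusted p under 0.05. It was 1 of 5 called without F2 male 2315, and 1 of 5 without the 5 F2 libraries between the sexes, where its male minus female slope was 0.156. Since low males stand nearer the high band than low females do, the fit was repeated on a level scaled to 0 at the MRL mean and 1 at the mean of SM and F1 animals of the sex. The slopes were then 0.40 in males and 0.08 in females, with a difference of 0.33 ± 0.06 (SE; adjusted p = 5.72e-04), again the 1 call. The scaling was chosen after the data were seen.

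In the parental strains the MRL minus SM difference of ENSMUST00000021390_at was -0.42 log2 units in males and -0.05 in females. The outcome of the interaction fit for it is not given here. MRL males had 6.84, 7.01 and 6.77 and SM males 7.16, 7.30 and 7.43, without overlap. MRL females had 6.62, 6.71 and 6.52 and SM females 6.68, 6.72 and 6.61, which overlapped. F1 males, at 6.79 (in the library labelled F1 male 1146), 7.04 and 6.82, lay under all SM males and in or close to the range of the MRL males.

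**Figure D3:**
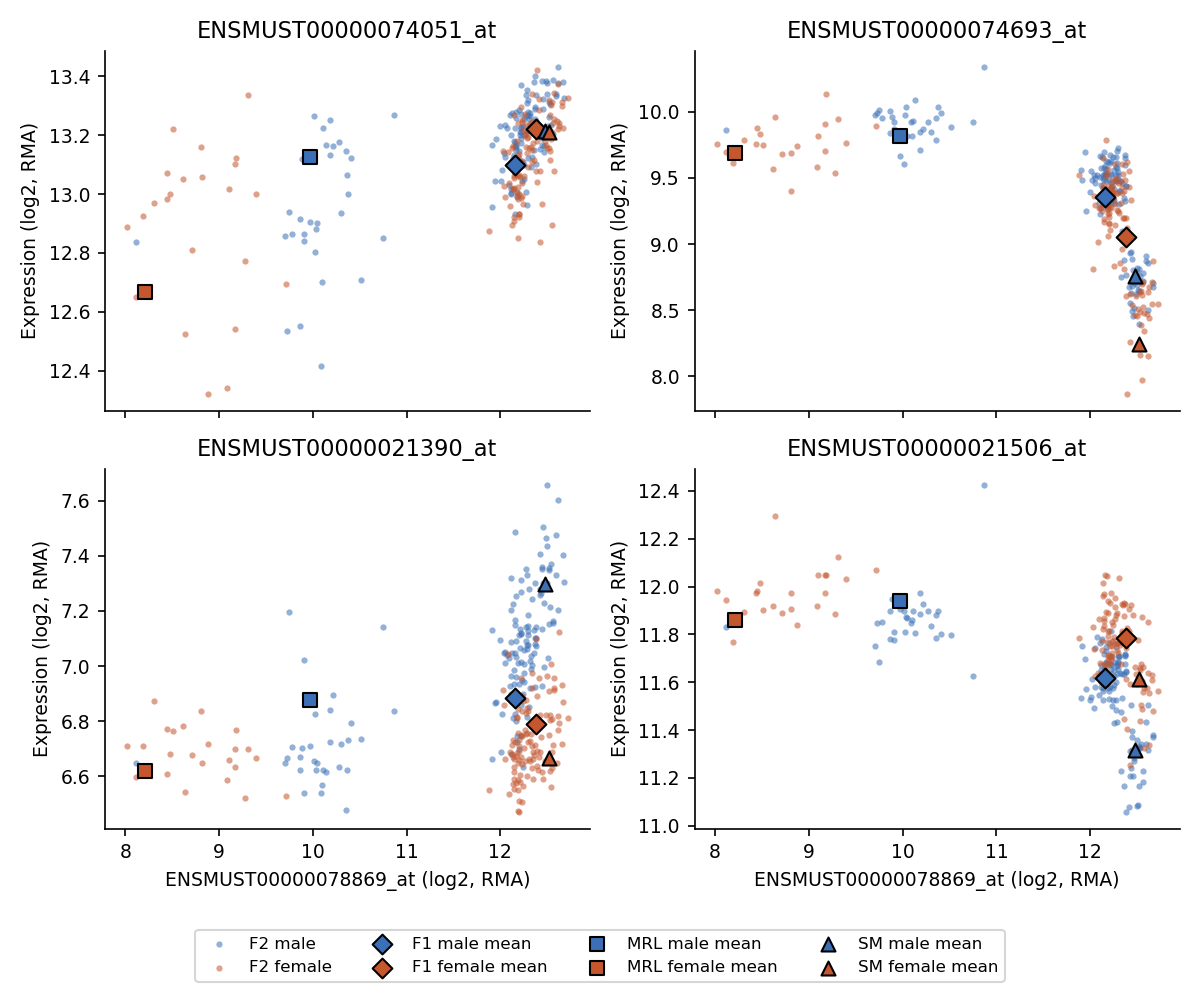
Level of 4 transcripts (log2, vertical axes) against that of ENSMUST00000078869_at (log2, horizontal axes), 1 point per F2 animal by sex, with the means of the F1, MRL and SM animals of each sex as larger symbols. ENSMUST00000074693_at and ENSMUST00000021506_at fall and ENSMUST00000074051_at climbs from the low to the high band in both sexes, and ENSMUST00000021390_at climbs in males, with a slope of 0.172 against 0.019 in females.

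The slopes above were fitted over both F2 bands at once, so they mix the step between the bands with the relation within each. Within a band, with batch means removed, 16 correlations were computed. The 4 transcripts had been chosen by their slope in these same animals, so the p-values here are not independent of that choice. Among high animals ENSMUST00000074693_at had r = -0.75 in 116 males and r = -0.74 in 112 females, with Spearman's rho of -0.70 in each. ENSMUST00000021506_at had r = -0.66 in high males and -0.53 in high females (rho -0.59 and -0.50). ENSMUST00000074051_at had r = 0.52 in high males and 0.55 in high females (rho 0.49 and 0.56). ENSMUST00000021390_at had r = 0.52 in high males and 0.36 in high females (rho 0.49 and 0.42). The permutation p was 1e-05 for each of these r, the smallest that 100000 permutations can give (adjusted p = 2.29e-05), and 1.3e-04 for ENSMUST00000021390_at in high females (adjusted p = 2.6e-04).

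Without the libraries between the sexes, r for ENSMUST00000074693_at was -0.75 in 115 high males and -0.75 in 108 high females, and r for ENSMUST00000021390_at was 0.51 in high males and 0.39 in high females. Without the 2 animals farthest from the median, r for ENSMUST00000074693_at was -0.75 in high males and -0.73 in high females. Among low animals, 31 males and 17 females from batches with more than 1 low animal of their sex, r for the 4 transcripts ran from -0.25 to 0.47 and none passed (permutation, adjusted p of 0.105 or more). By Spearman's rho 1 relation in low animals passed, that of ENSMUST00000021506_at in females (rho = 0.57, permutation p = 0.0186, adjusted p = 0.033), in the direction opposite to the high animals. What sets the order within the high band was not tested.

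The sexes are separate animals and were also fitted apart. In F2 males 42 transcripts passed (0.122%) and in F2 females 60 (0.174%), or 100 without the 4 female libraries between the sexes. Both lists held 15 transcripts, 35.7% of the male list and 25% of the female list, all with the same direction in both sexes, 2 positive and 13 negative. Of the 42 called in males 39 had the same sign in females, and of the 60 called in females 55 had the same sign in males. Both counts include the 15 transcripts called in each sex. The share of all transcripts with the same sign in both sexes was not computed, so these counts have nothing to be set against.

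**Figure D4:**
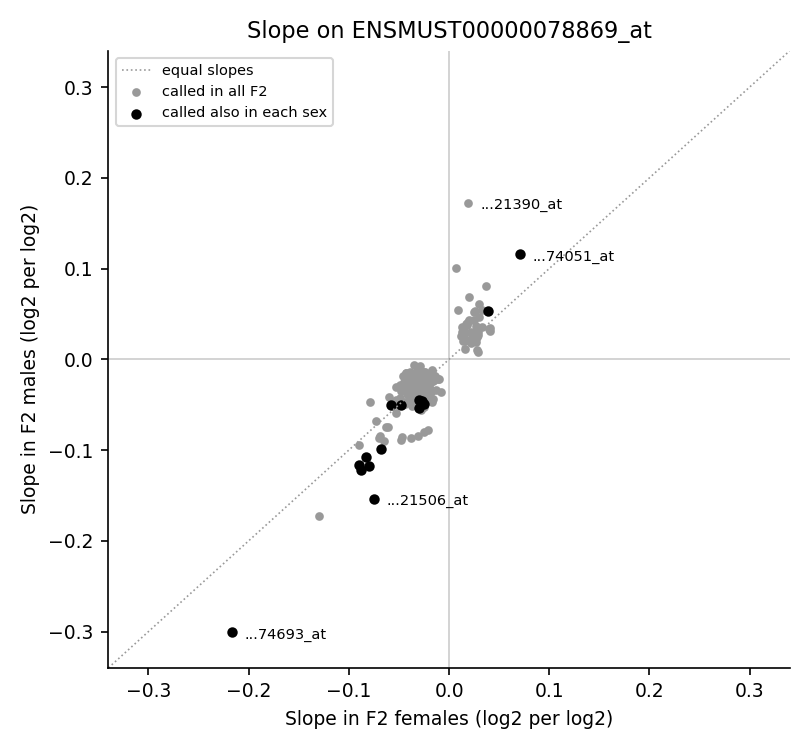
Slope of each of the 193 called transcripts on ENSMUST00000078869_at in F2 males (vertical axis) against that in F2 females (horizontal axis), in log2 units per log2 unit; black points are the 15 called also in each sex, and the dotted line marks equal slopes. The 4 named transcripts, picked by moderated t and not by size of slope, are labelled. ENSMUST00000021390_at lies far above the line, with 0.172 in males and 0.019 in females.

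The transcripts that followed were last set against the strain difference in parental animals, which had not been used to find them. A transcript that runs against ENSMUST00000078869_at in F2 goes in the slope's direction where it is higher in MRL, and one that runs with it where it is lower in MRL. Of the 193, 66 (34.2%) differed between the strains, and 62 of them (32.1% of the 193) did so in the direction of the slope, where 6.1% of all transcripts did. Against the direction of the slope went 4 (2.07%), where 4.23% of all transcripts did, but this count was less stable: it was 2 to 10 when 1 animal was left out (10 without SM male 8), 10 with F2 batch effects subtracted and 15 with the animal number as a replicate block, so no deficit is read from it. Without the library labelled F1 male 1146, 62 went in the direction of the slope and 4 against it. Of the 15 transcripts called in both sexes 11 differed between the strains, all 11 in the direction of the slope. Some called transcripts had near-equal values, such as a pair with slopes of -0.097 and -0.091 and MRL minus SM differences of 0.222 and 0.216. Whether such transcripts share a gene or probes was not checked, so these counts need not be of separate signals. The remaining 127 of the 193 were not called between the strains.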

How the data were processed

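Values are the deposited log2 expression values per Ensembl transcript, 1 array per animal, which the authors made with RMA in affy under R 2.11, per the submitters' processing notes. RMA corrects background, quantile-normalizes probe intensities and combines the probes of a transcript. Which annotation release and build were used is not given in the sources used here. All 34406 transcripts were kept. The gene table used (GRCm38.p6) matched 0 of the row identifiers, so the gene and marker lists drawn up for the study were not applied.

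Differences and slopes were fitted with limma 3.58.1 in R 4.3.3 (lmFit, then eBayes at its defaults), and p-values were adjusted over the whole table by Benjamini-Hochberg with calls at 0.05. The 18 MRL, SM and F1 animals were fitted as 6 groups, and the 282 F2 animals with batch as a fixed term. Shares were tested with exact tests and correlations by permutation in scipy 1.17.1, and figures were drawn with matplotlib 3.10.9. The number of arrays limits the precision. Besides ENSMUST00000078869_at the text names the 2 transcripts in each direction with the greatest moderated t in F2 and the same sign in both sexes. The transcript, the tests and the lists were chosen with earlier results of these data known. The fits were tested on simulated data. Alternatives were array centring, quantile normalization, a filter on dim transcripts, trend and robust options, batch treatments, other dividing levels, a covariate for array SD, normal scores, a block for the animal number, and leaving out doubtful libraries or each parental or F1 animal. The scaled level and the fit without F2 male 2315 were added after the data were seen.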

Additional observations from a re-analysis of the deposited data

Results flagged for a closer look

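The strain difference of ENSMUST00000078869_at drew attention because it differed between the sexes: the MRL minus SM difference was -2.51 log2 units in males and -4.31 in females, and the male minus female difference of these was 1.80 ± 0.24 (SE; limma interaction, adjusted p = 0.00255). MRL males and MRL females shared no batch, and the transcript was chosen on the levels of these animals.

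The slope of ENSMUST00000021390_at on ENSMUST00000078869_at in F2 also differed between the sexes, by 0.15 log2 units per log2 unit (0.172 in males and 0.019 in females; limma adjusted p = 1.56e-11).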

How the results depend on the processing

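The sex difference in MRL (1.52 to 2.06 log2 units) and the strain by sex interaction (1.57 to 2.06) kept their direction and their call under all alternatives run, as did the slopes of the 4 named transcripts. Both the MRL difference and the interaction used the animals that chose the transcript, so their calls are not independent of that choice. MRL males and MRL females shared no batch under any alternative. Leaving out 1 animal gave 1.52 to 2.01 for the sex difference in MRL, 1.57 to 2.06 for the interaction, -0.31 to -0.11 for the sex difference in F1 and -0.10 to 0.022 for that in SM. An animal outside a comparison enters only the shared spread and the p-value, so leaving it out is no check on the size or direction. The SM difference, -0.05, turned to 0.022 without SM male replicate 6 and to 0.061 with F2 batch effects subtracted, and was called in neither. The low share over all F2 was 18.4% with 1 dividing level for both sexes (adjusted p = 0.0432), and 19.1% to 19.5% under the other alternatives, where it did not pass.

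The count of 193 transcripts that followed became 128 with arrays centred (126 of them among the 193), 298 with array SD as a covariate (193 shared) and 1106 with normal scores (154 shared). The positive share of 24.4% became 34.4% with centring, 42.8% with quantile normalization (175 of 269 calls shared), 33.9% with array SD and 51.7% with normal scores, so the balance of directions rests on the scaling. The male count of 42 became 180 with normal scores, and the female count of 60 became 100 without the libraries between the sexes, on either the measured or the scaled level. The count of slopes that differed between the sexes, 1, became 3 with centring, 4 with quantile normalization, and 5 with array SD, without the libraries between the sexes or without F2 male 2315. The cause was not tested. The 62 strain calls in the slope's direction became 49 to 66 when 1 animal was left out, and the 4 against it 2 to 10.

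Whether the animal numbers pair the parental animals was not tested. Deviations of same-numbered MRL and SM animals correlated between -0.08 and 0.22. Among the animals of the same sex in the other strain, 6 of 12 animals correlated best with their own number. With the number as a replicate block the interaction was 1.80 (adjusted p = 0.00259) and 63 followers were called between the strains in the slope's direction, with 15 against it. The interaction called 265 transcripts of the array in that fit and 266 in MRL and SM animals without the block, against 76. The sex comparison in MRL called 2247 transcripts of the array with F2 batch effects subtracted, against 5881, and 2290 (without MRL male 7) to 7267 (without F1 male 1152) with 1 animal left out.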

Other observations

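F2 male 2315, the low male at 8.12, stood at the level of the low females for ENSMUST00000078869_at. In the same animal ENSMUST00000074693_at was 9.86, ENSMUST00000021506_at 11.83, ENSMUST00000074051_at 12.84 and ENSMUST00000021390_at 6.65.

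With the level scaled to the parental distance of each sex, the slope of ENSMUST00000074693_at was -0.71 in males and -0.92 in females, and that of ENSMUST00000074051_at was 0.27 in males and 0.30 in females. Neither difference between the sexes passed (limma adjusted p = 0.88 and 0.945).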
